A study of Mus musculus with 4 samples.

Results

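The clustered histone genes are the genes that code for the linker histone H1 and the core histones H2A, H2B, H3 and H4 and that lie together in a few arrays of the mouse genome. They were taken here as every gene whose symbol begins with Hist1h, Hist2h, Hist3h or Hist4h, which gave 67 of the 32285 genes counted. Of these, 6 code for H1, 18 for H2A, 18 for H2B, 12 for H3 and 13 for H4, and 54 lie on chromosome 13, 10 on chromosome 3, 2 on chromosome 11 and 1 on chromosome 6. Their messenger RNA was measured by single-cell RNA sequencing in splenic B cells sorted as germinal center (GC) B cells from 6 recipient mice on day 8 after immunization.

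The recipients were CD45.1+ WT mice immunized with SRBC-HEL, sheep red blood cells conjugated to hen egg lysozyme (HEL). All transferred B cells were MD4, which means that they carried an immunoglobulin transgene against HEL, and all sorted cells bound HEL and were CD95+. In 3 mice (wt1 to wt3) the CD45.2+ transferred cells were BCL2.Tg Dock8 wt/wt MD4, and in the other 3 (cpm1 to cpm3) they were BCL2.Tg Dock8 cpm/cpm MD4. The cpm allele is ENU-induced and is described as DOCK8-null. The BCL2 transgene, a survival gene expressed in B cells only, was carried by the CD45.2+ cells of both groups. CD45.1+ Dock8 wt/wt MD4 cells without that transgene were transferred together with them into all 6 mice. The mice were adult and age-matched. CD45.2+ and CD45.1+ cells were sorted into separate tubes, the cells of the 6 mice were pooled within a sort, and 1 mRNA library with 1 hashtag library came from each, so the sort and the library cannot be told apart. The mouse of each cell came from its hashtag, and the recipient mouse is the replicate throughout. How many donor mice the transferred cells of a group came from is not given in the sources used here.

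A dividing cell must make as much histone protein as it makes DNA, and most clustered histone genes are switched on together as DNA replication begins. Their messenger RNAs are unusual, because they end in a short stem-loop that is bound by the protein SLBP instead of in a poly(A) tail, and they are destroyed when S phase ends. A library made by capture on poly(A), as here, counts such a molecule only where it was polyadenylated or was primed from an internal stretch of A. In the GC, B cells divide in the dark zone (DZ) and are selected in the light zone (LZ). Plasmablasts are dividing antibody-secreting cells, and plasma cells (PC) have stopped dividing.

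The stem-loop was searched for in each gene, extended by 100 bases past its annotated 3′ end, as GGC, any base, CTTTT, any base, AG, any base and GCC, 16 letters on the strand of the mRNA, after the stop codon. It was present in 61 of the 67 genes, whereas 45 of all 21901 protein-coding genes (0.205%, clustered histone genes included) held it in an annotated transcript. These searches are not alike, since the transcripts were not extended past their ends. Some of the 61 matches end past the annotated end and would be missed in a transcript. The genes without a match were Hist1h2an, Hist1h3g, Hist1h4a, Hist1h4b, Hist1h4j and Hist2h2be. The 16 letters took 5 forms. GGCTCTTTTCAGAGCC was shared by 41 genes, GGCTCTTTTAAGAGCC by 9, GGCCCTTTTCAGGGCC by 8 H4 genes, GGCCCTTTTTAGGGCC by Hist1h4i and Hist2h4, and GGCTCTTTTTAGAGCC was in Hist2h2ac alone. The windows below, of 30 bases each and read from GRCm38 with the GENCODE M21 annotation, belong to the genes on which the results turn and hold all 5 forms. Capitals mark the stem-loop, and all sequences are written 5′ to 3′ on the gene's strand.
Hist1h2ap (H2A, chr13:21833021-21833050, minus strand): aaaaaaGGCTCTTTTCAGAGCCatccacag
Hist1h2ae (H2A, chr13:23570660-23570689, minus strand): aacaaaGGCTCTTTTCAGAGCCattcactt
Hist2h2ac (H2A, chr3:96220410-96220439, minus strand): caaaaaGGCTCTTTTTAGAGCCaccaaatc
Hist1h2bc (H2B, chr13:23684641-23684670, plus strand): tccaaaGGCTCTTTTCAGAGCCacccactt
Hist2h2bb (H2B, chr3:96270165-96270194, plus strand): ccaaaaGGCTCTTTTCAGAGCCactttagt
Hist1h1b (H1, chr13:21779829-21779858, minus strand): cccaaaGGCTCTTTTCAGAGCCacctagag
Hist1h1c (H1, chr13:23739506-23739535, plus strand): ccaaaaGGCTCTTTTCAGAGCCaccactcc
Hist1h1e (H1, chr13:23621774-23621803, minus strand): cccaaaGGCTCTTTTCAGAGCCacccacaa
Hist1h3c (H3, chr13:23745039-23745068, minus strand): aaaaaaGGCTCTTTTAAGAGCCacctaaga
Hist1h4d (H4, chr13:23581944-23581973, plus strand): accaaaGGCCCTTTTCAGGGCCactacctt
Hist1h4i (H4, chr13:22040958-22040987, minus strand): cttaaaGGCCCTTTTTAGGGCCaccacaaa

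Where the annotated gene stops decides which reads can be counted, and it differed widely from gene to gene. The ends given here are those of GENCODE M21. Whether the annotation used for the counts has the same ends was not checked. Annotation ended at most 20 bases past the stem-loop, or before it, in 19 genes that gave 38.6% of the histone counts, and ran 100 or more bases past it in 25 genes that gave 46.6%. Hist1h2ap (13:21833026-21833507) ended 3 bases past its stem-loop and Hist1h1b (13:21779883-21780625) ended 46 bases before the end of its own. Hist1h1e (13:23620629-23622558) continued for 1153 bases, Hist1h1c (13:23738808-23740367) for 840 and Hist1h2bc (13:23684199-23692908) for 8246. Of the 67 genes, 7 overlap another gene on the same strand, Hist1h1e with Hist1h2be among them, and near-identical copies lose reads that fit more than 1 gene. Values of such genes are therefore uncertain.

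Counts were unique molecular identifiers (UMIs), each standing for 1 captured RNA molecule, and a level is given in CPM, the UMIs of a gene scaled to a common total of UMIs for the group of cells. The histone genes gave 105463 UMIs in all. Hist1h2ap held 20.6% of them, Hist1h2ae 13.1%, Hist1h1b 11.98% and Hist1h1e 9.83%, and these 4 genes together 55.6%. Hist1h2ba and Hist1h2bq had 0 UMIs and 5 genes had fewer than 10. At least 1 comparison could test 52 of the 67 genes, those with enough counts. In the LZ, DZ, PC/PB and other states described here, 6488 CD45.2+ and 3204 CD45.1+ cells were kept. Of 24241 CD45.2+ barcodes with mRNA counts, 14617 also had hashtag counts, and fewer CD45.2+ cells were kept than in the study. The CD45.2+ cells were unevenly spread, with 1672 to 2607 for each of wt1 to wt3 and 44 to 101 for each of cpm1 to cpm3, while the CD45.1+ sort had 339 to 947 for each mouse. A mouse gave 342465 to 18036775 UMIs in the CD45.2+ sort and 2365275 to 7020373 in the CD45.1+ sort. The 2 sorts shared 6 barcodes among the kept cells. Intervals over mice, and not over cells, are used below, and they cover mice that shared a library.

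Cells were grouped by the rest of the transcriptome. The 22 histone genes among the 3000 most variable genes were removed before clustering, and the lists of 43 S-phase and 54 G2M genes used to call the cell-cycle phase hold 0 of them. The 16 clusters were named from marker lists of the study, so each name stands for cells like that state. The DZ clusters were DZ1, DZ3 and DZ4, the LZ clusters LZ1 and a joint LZ2 to LZ4, and the PC/PB clusters CyclingPC_PB, PC1 and PC2. A cluster of T-cell-like cells, in which T-cell markers summed to 10620 CPM against 142 CPM in the B cells, served as the reference for RNA that is free in the droplets. That cluster also held macrophage markers, at 1361 CPM against 15.1 CPM. It may hold histone mRNA of its own cells as well, and RNA from empty droplets was not used here. B-cell markers summed to 14150 CPM in the B cells and 3761 CPM in the T-cell cluster, and GC markers to 410 and 192 CPM.

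Histone mRNA was concentrated in the DZ and in the cycling plasmablast cluster. Among CD45.2+ cells the genes together made up 0.641% ± 0.0259 of all UMIs in DZ3 (SD, n = 3 mice), at 0.618%, 0.669% and 0.636% in wt1, wt2 and wt3. They made up 0.286% ± 0.00847 in DZ1 (SD, n = 4) and 0.382% ± 0.008 in CyclingPC_PB (SD, n = 3). DZ3 had the most G2M transcripts of the DZ clusters, at 2.20% of the UMIs that did not come from immunoglobulin genes. DZ1 had the most S-phase transcripts, at 0.676%. Within DZ3 the histone share was 0.774% ± 0.0601 in S-called cells and 0.621% ± 0.0218 in G2M-called cells (SD, n = 3 each). This cluster held 13 markers of the DZ3 list and 9 of the DZ2 list. With the histone genes kept in the clustering, a cluster of 858 cells was named DZ2 and one of 121 cells DZ3. In the third DZ cluster, DZ4, the share was 0.0400% ± 0.0108 (SD, n = 3), no higher than the 0.0402% ± 0.00401 of the T-cell cluster (SD, n = 3), although G2M transcripts were at 1.87% there.

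All other states were low. The LZ clusters together stood at 0.0298% ± 0.0039 (SD, n = 5) and Activated_Memory at 0.0300% ± 0.00241 (SD, n = 3). Both lay below the T-cell cluster, so these levels cannot be separated from that reference. PC1 and PC2 were at 0.0437% ± 0.00592 and 0.0443% ± 0.00335 (SD, n = 3 each). Activated2, a small cluster marked by G2M genes such as Ccnb2 and Birc5, was intermediate at 0.0853% ± 0.0294 (SD, n = 3).

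The CD45.1+ sort gave the same order with lower values in DZ1 and CyclingPC_PB. DZ3 stood at 0.633% ± 0.0522 (SD, n = 6), CyclingPC_PB at 0.299% ± 0.0314 (SD, n = 5) and DZ1 at 0.149% ± 0.0409 (SD, n = 6). DZ4 was at 0.0300% ± 0.00212 (SD, n = 4), the LZ clusters at 0.0223% ± 0.00256 (SD, n = 6) and the T-cell cluster at 0.0246% ± 0.00514 (SD, n = 3). DZ1 of the CD45.1+ sort ran from 0.0735% in wt3 to 0.186% in cpm3. The 3 highest states held this order in both sorts, and the ranges over mice did not overlap between DZ3 and CyclingPC_PB.

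**Figure D1:**
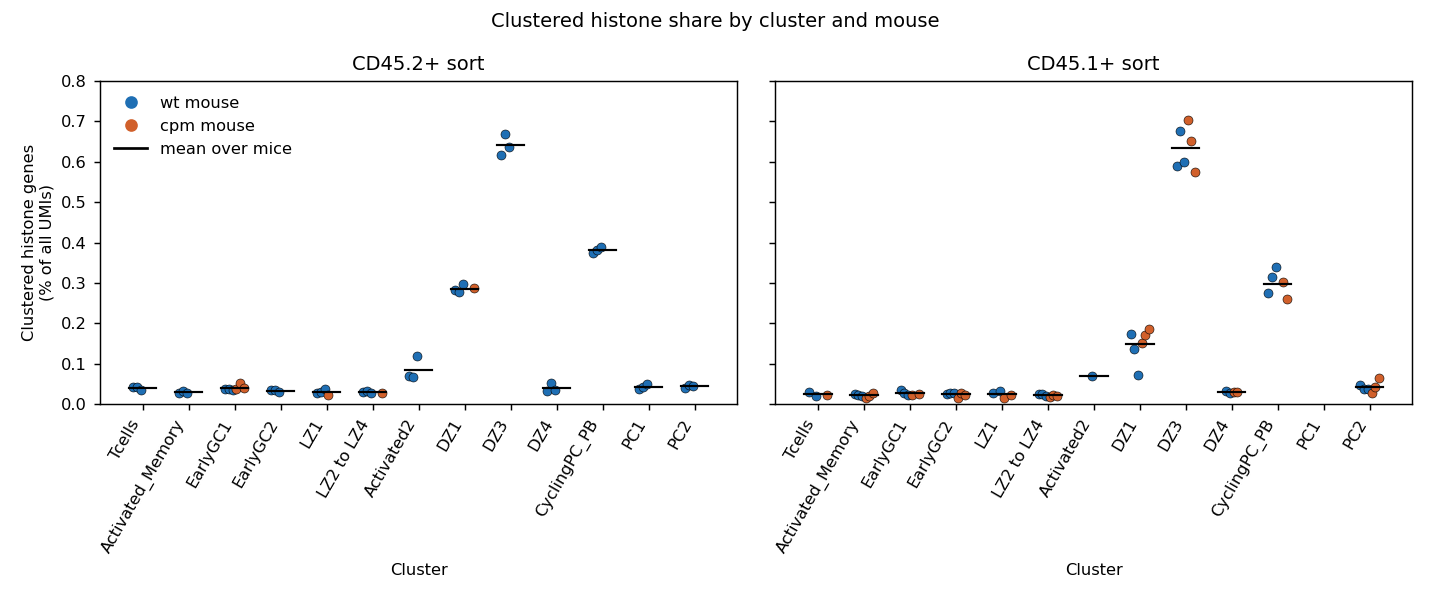
Share of all UMIs that came from the clustered histone genes, in percent, for each cluster (horizontal axis) in CD45.2+ cells and CD45.1+ cells. Each point is 1 mouse with at least 10 cells in the cluster, blue for wt1 to wt3 and orange for cpm1 to cpm3, and the bar is the mean over mice. DZ3 stands highest in both sorts, at 0.641% and 0.633%, and DZ4 lies with the LZ and T cells.

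Immunoglobulin transcripts took 26.3% of the UMIs in CyclingPC_PB of the CD45.2+ sort and 41.1% in PC2, which lowers the share of every other gene. Among UMIs that were not from immunoglobulin genes, the histone share of CyclingPC_PB was 0.519% (CD45.2+) and 0.408% (CD45.1+), still under that of DZ3. All these shares are relative to the UMIs of the same cells. Without that scaling, the median CD45.2+ cell held 64.7 ± 4.73 histone UMIs in CyclingPC_PB and 65.5 ± 8.23 in DZ3 (SD, n = 3 mice each). The depth differed, with a median of 15364 UMIs per cell in CyclingPC_PB, 8986 in DZ3 and 8968 in DZ1. It was 4156 in LZ2 to LZ4 and 3175 in the T-cell cluster. Each cell was therefore also thinned to 2000 UMIs, and a cell with 4 or more histone UMIs, which is 0.2% of the thinned cell, was counted as histone-rich.

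By that measure DZ3 was 81.4% ± 2.69 histone-rich and CyclingPC_PB 74.7% ± 9.15 in the CD45.2+ sort (SD, n = 3 each), and DZ1 was 35.4% ± 2.27 (SD, n = 4). In CD45.1+ cells the percentages were 85.4% ± 6.5 in DZ3 (SD, n = 6), 62.1% ± 12 in CyclingPC_PB (SD, n = 5) and 19.2% ± 8.47 in DZ1 (SD, n = 6). Histone-rich cells made up 2.66% of DZ4, 1.08% of the LZ and 2.56% of the T-cell cluster in the CD45.2+ sort. The average thinned cell held 13.1 histone UMIs in DZ3, 7.46 in CyclingPC_PB, 4.68 in DZ1 and 0.839 in the T-cell cluster (CD45.2+).

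**Figure D2:**
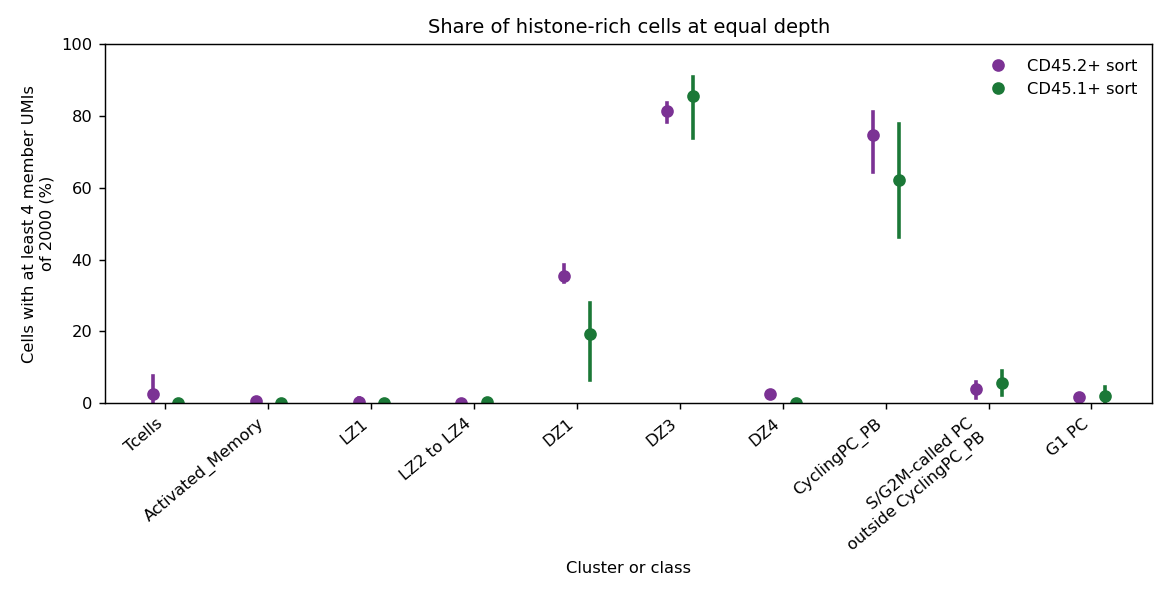
Percent of cells with at least 4 histone UMIs after thinning each cell to 2000 UMIs, by cluster or class, in CD45.2+ and CD45.1+ cells. Points are means over mice and lines run from the lowest to the highest mouse. S/G2M-called PC/PB cells outside CyclingPC_PB lie at 3.89% and 5.63%. This is somewhat above the G1-called PC cells at 1.73% and 2.11% and far below CyclingPC_PB at 74.7% and 62.1%.

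Single genes were compared between DZ and LZ cells of the same mouse, with counts summed over the cells of each state, in edgeR's quasi-likelihood test, and the ± beside a log2 fold change is its standard error. Every histone gene with enough counts was higher in the DZ. These were 30 of 30 genes in the CD45.2+ sort, over wt1 to wt3, cpm1 and cpm3, where 25.8% of the 7385 genes tested were called higher at an adjusted p under 0.05, and 26 of 26 in the CD45.1+ sort, over 6 mice, where 25.6% of 6558 were. For none of these genes did the mice of the DZ overlap those of the LZ, but overlap was not counted over all genes. The median log2 fold change of the histone genes was 3.32 and 3.85, against -0.03 over all genes in each sort. A histone gene with counts in the DZ alone passes the filter on low counts through the DZ, so the genes tested are not a sample of all 67.

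The H2A genes differed most, with a median log2 fold change of 5.18 (CD45.2+) and 5.81 (CD45.1+), and the H4 genes least, with 2.35 and 2.64. Hist1h2ap stood at 1072, 1016, 1113, 1486 and 905 normalised CPM in the DZ of wt1, wt2, wt3, cpm1 and cpm3 and at 16.3, 28.7, 45.0, 40.03 and 16.2 in their LZ. Its log2 fold change was 5.18 ± 0.15 (edgeR, adjusted p = 6.9e-63). Among CD45.1+ cells it ran from 432 over a median of 553 to 676 in the DZ and from 0 over 5.32 to 10.6 in the LZ, a log2 fold change of 6.59 ± 0.15. Hist1h2ae was at 624, 642, 728, 735 and 521 normalised CPM against 14.2, 20.02, 14.7, 16.0 and 8.09 in the CD45.2+ sort, a log2 fold change of 5.28 ± 0.15 (edgeR, adjusted p = 1.16e-62).

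Several genes were almost absent from the LZ. Hist1h2ab gave 349 UMIs in the DZ and 1 in the LZ of the CD45.2+ sort, Hist1h3f 319 and 1, Hist1h2af 292 and 1, and Hist1h2an 608 and 6. Within the CD45.1+ sort Hist1h3c gave 611 and 4 UMIs and Hist1h1b 2449 and 17. No fold is printed for the genes with 1 UMI in the LZ, although their fitted folds enter the counts and medians.

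The H1 genes differed among themselves. Hist1h1b, which codes for the H1.5 protein, rose in the DZ from 21.8, 18.1, 32.4, 16.0 and 16.2 to 572, 510, 563, 344 and 529 normalised CPM in the CD45.2+ sort, a log2 fold change of 4.58 ± 0.15 (edgeR, adjusted p = 3.88e-58). Hist1h1c, which codes for H1.2, rose only from 32.7, 29.0, 19.9, 56.0 and 24.3 to 74.5, 85.1, 90.7, 109.5 and 64.6, a log2 fold change of 1.56 ± 0.15 (edgeR, adjusted p = 2.04e-17), the smallest of the 30. In the CD45.1+ sort it was again the smallest of the 26, at 1.81 ± 0.15 (edgeR, adjusted p = 2.99e-32), with DZ values from 71.9 to 124 and LZ values from 18.7 to 33.5. Hist1h1a was at 4.86, Hist1h1d at 3.41 and Hist1h1e at 2.43 on the log2 scale in the CD45.2+ sort. Of the other genes named for every comparison, Hist1h3c was at 5.02, Hist1h4d at 3.21 and Hist1h2bc at 1.77, and Hist4h4 had too few counts to be tested.

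The fold also went with the annotated 3′ end, as a description. Over the genes annotated for at most 20 bases past the stem-loop the median log2 fold change between DZ and LZ was 4.84 (CD45.2+) and 5.89 (CD45.1+), and over those annotated for 100 bases or more it was 3.21 and 3.17. Hist1h1c, Hist1h1e and Hist1h2bc, with small folds, belong to the second kind, but so does Hist1h2ae, with a large fold.

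**Figure D3:**
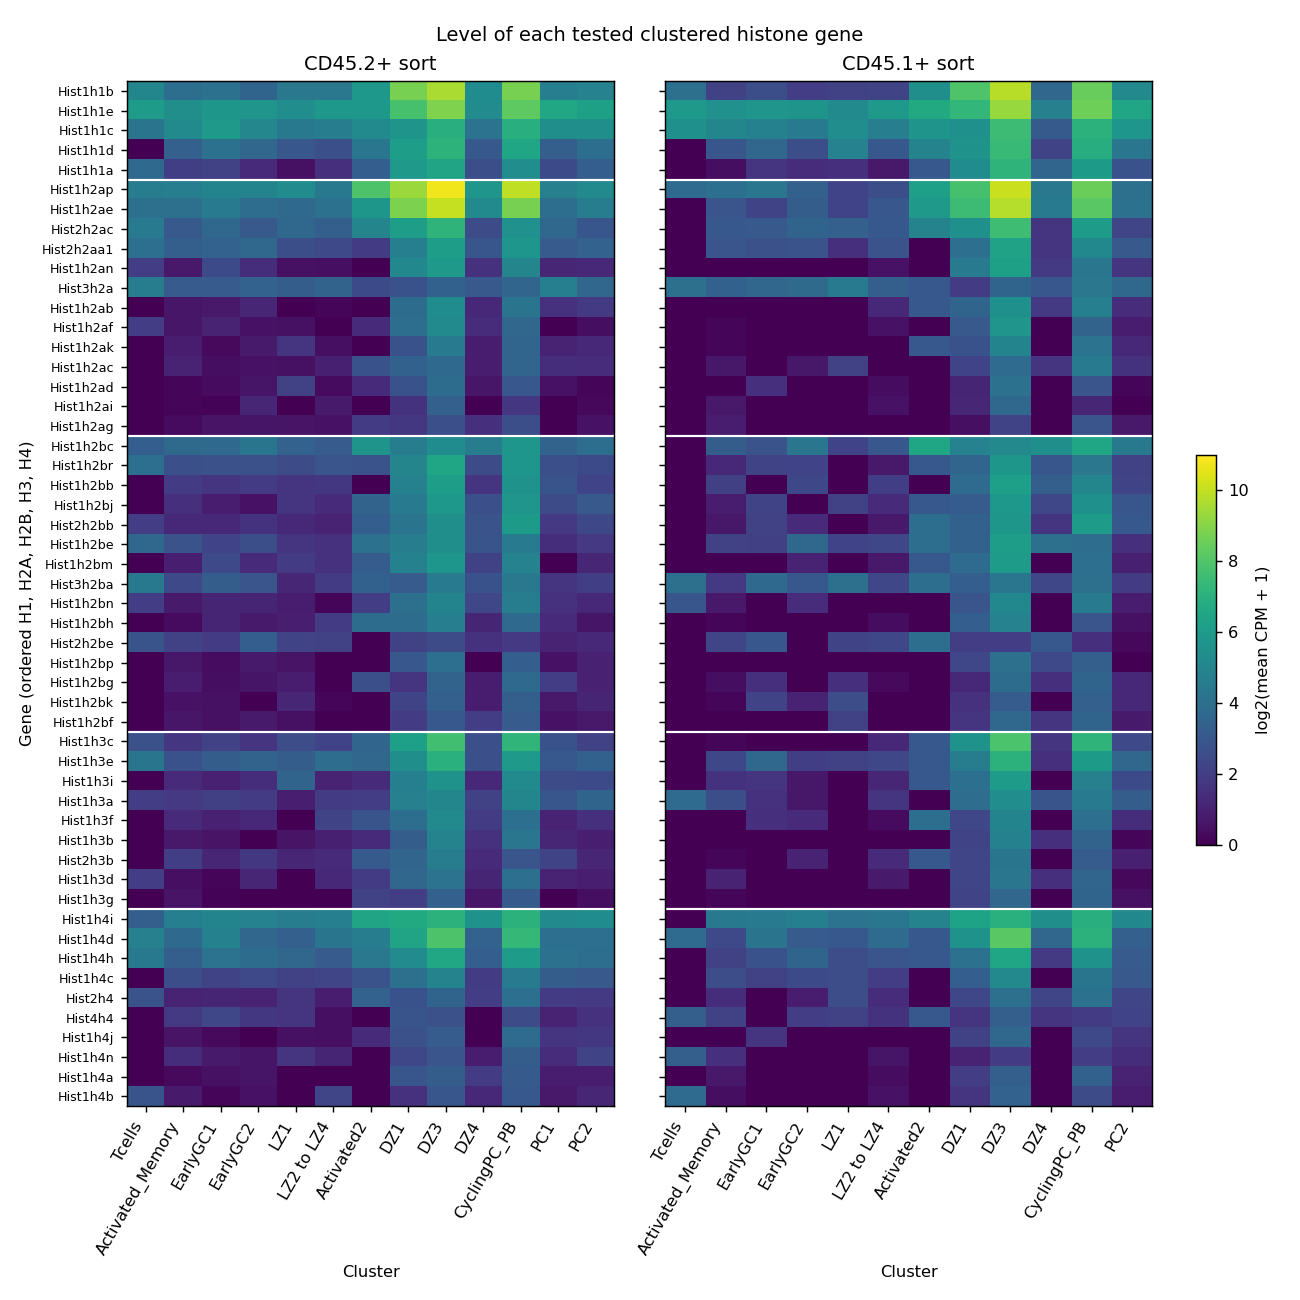
Mean level of each tested histone gene, as log2(CPM + 1), by cluster, from the T-cell cluster to PC2, in CD45.2+ and CD45.1+ cells. Rows are genes grouped as H1, H2A, H2B, H3 and H4. DZ1, DZ3 and CyclingPC_PB stand out in nearly every row, and a few genes such as Hist1h1c and Hist1h1e keep a visible level in every cluster.

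Cycling plasmablasts were then compared with cycling GC cells in the same mice. Cycling cells were those called S or G2M, in PC/PB clusters for the plasmablasts and in LZ and DZ clusters for the GC cells. In the CD45.2+ sort, over wt1 to wt3 with 89, 149 and 153 plasmablasts and 399, 539 and 433 GC cells, 8 of 52 histone genes were higher in plasmablasts and 10 were lower, where 23.3% and 21.5% of the 9539 genes tested were called. In CD45.1+ cells, over 6 mice with 12 to 111 plasmablasts each, 15 of 29 were higher and 0 lower, where 27.2% and 29.8% of 6408 genes were called. The median log2 fold change of the histone genes was -0.11 in the CD45.2+ sort and 0.60 in the CD45.1+ sort, against -0.02 and -0.07 over all genes.

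The S/G2M call took in unlike cells in the 2 sorts. Of the 395 CD45.2+ PC/PB cells called S or G2M, 107 (27.1%) lay in the cluster CyclingPC_PB, with 26 of 243 called S and 81 of 152 called G2M. Of the 215 CD45.1+ cells, 133 (61.9%) did, with 48 of 101 called S and 85 of 114 called G2M. The cells so called that lay in PC1 or PC2 had little histone mRNA, though somewhat more than G1-called PC. Only 3.89% ± 2.36 of them were histone-rich in the CD45.2+ sort (SD, n = 3 mice, 288 cells), with an average of 1.02 histone UMIs in 2000, against 1.73% and 0.763 in G1-called PC. Among CD45.1+ cells it was 5.63% over 2 mice, with an average of 1.32 histone UMIs, against 2.11% and 0.784 in G1-called PC. The comparison was therefore repeated between DZ clusters and CyclingPC_PB only, a setting chosen after these values were seen, and both are given side by side. The plasmablasts left out were those seen to be poor in histone mRNA, so a higher plasmablast level follows in part from that choice. Histone values between the clusters are thus a description, also where a p-value is given and for the difference between the sorts. The 10 leading genes of CyclingPC_PB were Mt1, H1f0, Ssr2, Ppa1, Socs2, Rexo2, Creld2, Hsp90b1, Rrm2 and Manf.

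Within the clusters the direction turned in the CD45.2+ sort. There 27 of 53 histone genes were higher in CyclingPC_PB and 1 was lower, where 17.7% and 19.4% of the 9194 genes tested were called, and the median was 0.68 against -0.11 over all genes. The cells numbered 14, 32 and 61 in CyclingPC_PB of wt1, wt2 and wt3. Within the CD45.1+ sort, over 5 mice, 18 of 31 were higher and 0 lower, where 25.6% and 28.4% of 6051 genes were called, with a median of 0.64 against -0.08. A stricter phase call, with a score above 0.1, also turned the CD45.2+ counts, to 20 higher and 2 lower.

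**Figure D4:**
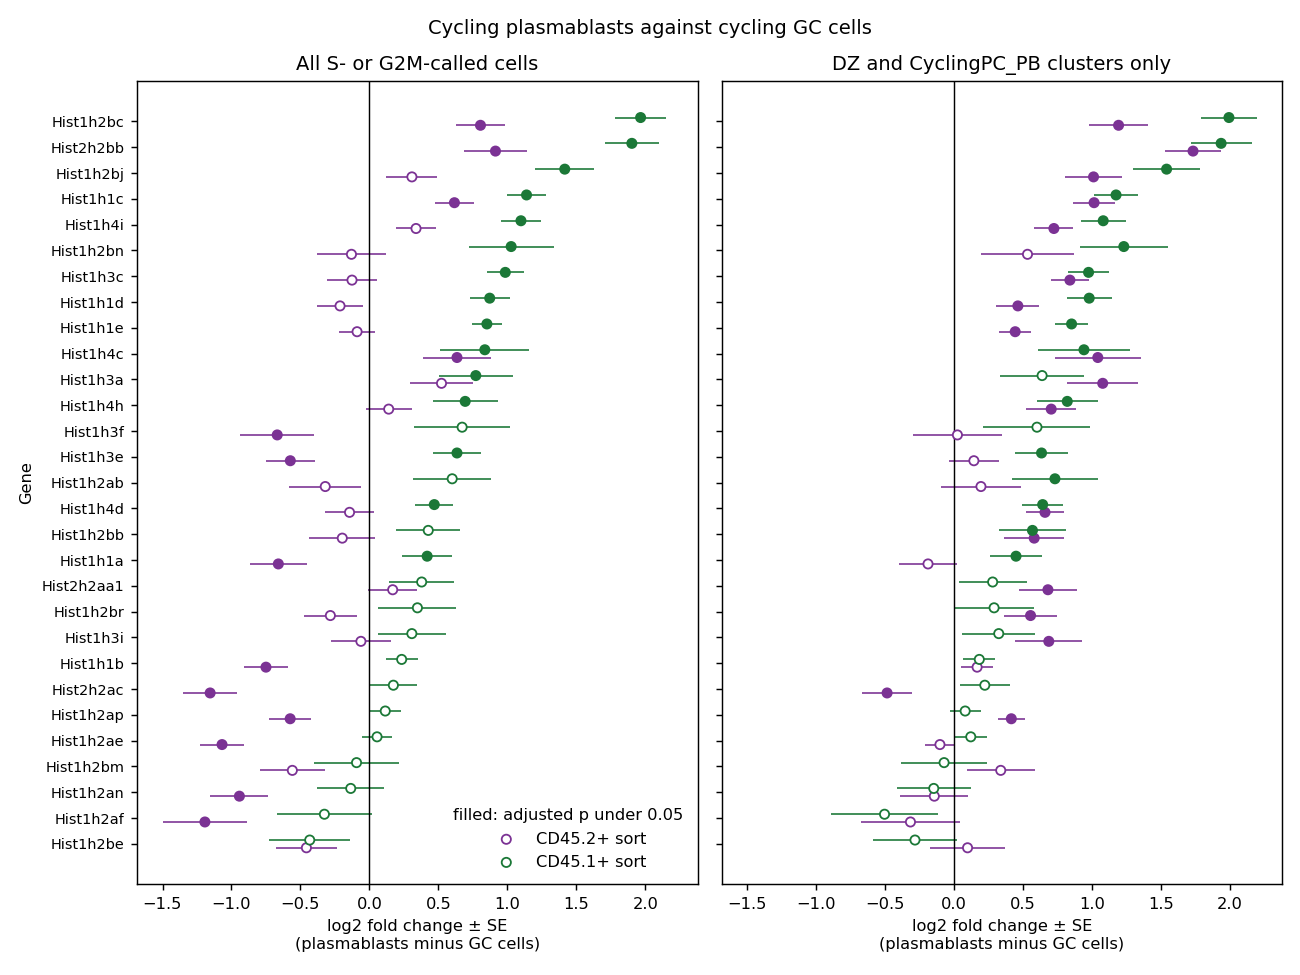
Log2 fold change of cycling plasmablasts against cycling GC cells for 29 histone genes, with bars of 1 standard error. The left panel takes all S/G2M-called cells and the right panel CyclingPC_PB against the DZ clusters; purple is CD45.2+, green is CD45.1+, and filled points have an adjusted p under 0.05. On the left the CD45.2+ points lie to the left of the CD45.1+ points for most genes, and on the right both sorts lie mostly above 0.

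By family, the H2A genes had the lowest median log2 fold change in both sorts and both settings. In CD45.2+ cycling cells 5 of 13 H2A genes were lower in plasmablasts and 1 was higher (median -0.57), whereas 4 of 10 H4 genes were higher and none lower (median 0.55). H2B had 2 of 15 higher, H3 had 3 of 9 lower, and H1 had 1 of 5 higher and 2 lower. Over all genes 23.3% were higher and 21.5% lower, so the H2B and H1 counts of higher genes were below that share. In the clusters 3 of 13 H2A genes were higher and 1 lower (median 0.19), against 8 of 11 H4 genes (median 0.95), 9 of 15 H2B genes, 4 of 9 H3 genes and 3 of 5 H1 genes higher, where 17.7% of all genes were higher and 19.4% lower. In the CD45.1+ sort 0 of 7 H2A genes passed, with a median of 0.12, while 4 of 4 H4, 4 of 5 H1, 3 of 5 H3 and 4 of 8 H2B genes were higher, where 27.2% of all genes were.

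The H2A genes with the most counts show this. Hist1h2ae was at 142, 213 and 347 normalised CPM in CD45.2+ cycling plasmablasts of wt1, wt2 and wt3 and at 457, 434 and 534 in cycling GC cells, a log2 fold change of -1.07 ± 0.16 (edgeR, adjusted p = 9.19e-06), with no overlap. Between the clusters it was at 498, 536 and 521 against 515, 536 and 609, and its log2 fold change was -0.10 ± 0.11 (edgeR, adjusted p = 0.503). In CD45.1+ cells it ran from 223 over 328 to 393 in plasmablasts and from 242 over 308 to 380 in GC cells (lowest, median and highest of 6 mice), and its log2 fold change was 0.06 ± 0.11 (edgeR, adjusted p = 0.685). The groups overlapped throughout.

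Hist1h2ap was at 344, 484 and 770 normalised CPM in CD45.2+ cycling plasmablasts and at 785, 686 and 819 in cycling GC cells, a log2 fold change of -0.57 ± 0.15 (edgeR, adjusted p = 0.00434) with overlapping groups. In the clusters the sign turned, with 1162, 1179 and 1209 against 884, 848 and 931 and a log2 fold change of 0.42 ± 0.10 (edgeR, adjusted p = 0.000351) without overlap. Among CD45.1+ cells its log2 fold change was 0.12 ± 0.11 (edgeR, adjusted p = 0.39), from 344 over 383 to 596 against 314 over 371 to 479. Hist2h2ac was lower in CD45.2+ plasmablasts in both settings. It was at 19.0, 24.5 and 51.8 against 73.7, 65.2 and 80.8, a log2 fold change of -1.15 ± 0.20 (edgeR, adjusted p = 5.28e-05), and at 41.5, 48.7 and 76.6 against 83.0, 79.8 and 90.9 in the clusters, where it fell by 0.49 on the log2 scale (adjusted p = 0.0266, edgeR). It was the 1 gene lower there.

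The genes that were higher in plasmablasts in both sorts and both settings included 2 H2B genes and Hist1h1c. Hist1h2bc was at 31.2, 50.8 and 42.8 normalised CPM in CD45.2+ cycling plasmablasts against 22.1, 24.1 and 25.6 in GC cells, a log2 fold change of 0.81 ± 0.18 (edgeR, adjusted p = 0.000836), and at 72.7, 58.9 and 61.3 against 24.4, 28.4 and 28.0 between the clusters, a log2 fold change of 1.19 ± 0.21 (edgeR, adjusted p = 2.69e-06). Within the CD45.1+ sort it ran from 43.0 over 87.4 to 137 in plasmablasts and from 16.7 over 22.2 to 32.6 in GC cells, a log2 fold change of 1.97 ± 0.18 (edgeR, adjusted p = 5.47e-13). All plasmablast values lay above all GC values in these sets.

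Hist2h2bb, from the chromosome 3 array, was at 17.6, 33.6 and 63.5 normalised CPM against 21.6, 17.9 and 23.2 in CD45.2+ cycling cells, a log2 fold change of 0.91 ± 0.23 (edgeR, adjusted p = 0.00244), with wt1 lower in plasmablasts. Between the clusters it was at 51.9, 76.9 and 97.8 against 24.4, 21.8 and 26.3, a log2 fold change of 1.73 ± 0.20 (edgeR, adjusted p = 1.12e-11), and wt1 was then on the side of the others. In the CD45.1+ sort it ran from 56.0 over 68.0 to 97.9 against 13.3 over 19.9 to 23.7, a log2 fold change of 1.90 ± 0.20 (edgeR, adjusted p = 1.17e-11).

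Hist1h1c was at 69.1, 95.3 and 116.0 normalised CPM against 55.7, 60.4 and 67.2 in CD45.2+ cycling cells, a log2 fold change of 0.62 ± 0.14 (edgeR, adjusted p = 0.00133). Between the clusters it was at 119, 159 and 145 against 61.5, 71.1 and 75.9, a log2 fold change of 1.02 ± 0.15 (edgeR, adjusted p = 2.13e-08). In CD45.1+ cells it ran from 96.9 over 158 to 191 against 56.2 over 70.7 to 87.6, a log2 fold change of 1.14 ± 0.14 (edgeR, adjusted p = 2.29e-09). The gene with the smallest fold between DZ and LZ was thus among the higher ones in plasmablasts.

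The other H1 genes went with the setting. Hist1h1b was lower in CD45.2+ cycling plasmablasts, at 157, 248 and 301 normalised CPM against 418, 344 and 416, a log2 fold change of -0.75 ± 0.16 (edgeR, adjusted p = 0.000487), and stood at 457, 607 and 470 against 472, 425 and 471 between the clusters (log2 fold change 0.17, adjusted p = 0.26, edgeR). Among CD45.1+ cells its log2 fold change was 0.23 ± 0.12 (edgeR, adjusted p = 0.0795). Hist1h1a was lower by the same comparison (-0.66 ± 0.21, adjusted p = 0.0126, edgeR) and not called between the clusters (-0.19, adjusted p = 0.515, edgeR). Hist1h1e was at 184, 208 and 266 against 232, 208 and 260 in CD45.2+ cycling cells (-0.09, adjusted p = 0.606, edgeR), and at 374, 369 and 356 against 260, 249.2 and 291 between the clusters, a log2 fold change of 0.44 ± 0.12 (edgeR, adjusted p = 0.00133). Within the CD45.1+ sort it was higher by 0.85 ± 0.11 on the log2 scale (adjusted p = 5.28e-09, edgeR), from 284 over 425 to 512 against 187 over 246 to 278. Hist1h1d, at -0.21 in all CD45.2+ cycling cells (adjusted p = 0.313, edgeR), rose by 0.46 between the clusters (adjusted p = 0.0135, edgeR) and by 0.87 in the CD45.1+ sort (adjusted p = 9.8e-07, edgeR).

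**Figure D5:**
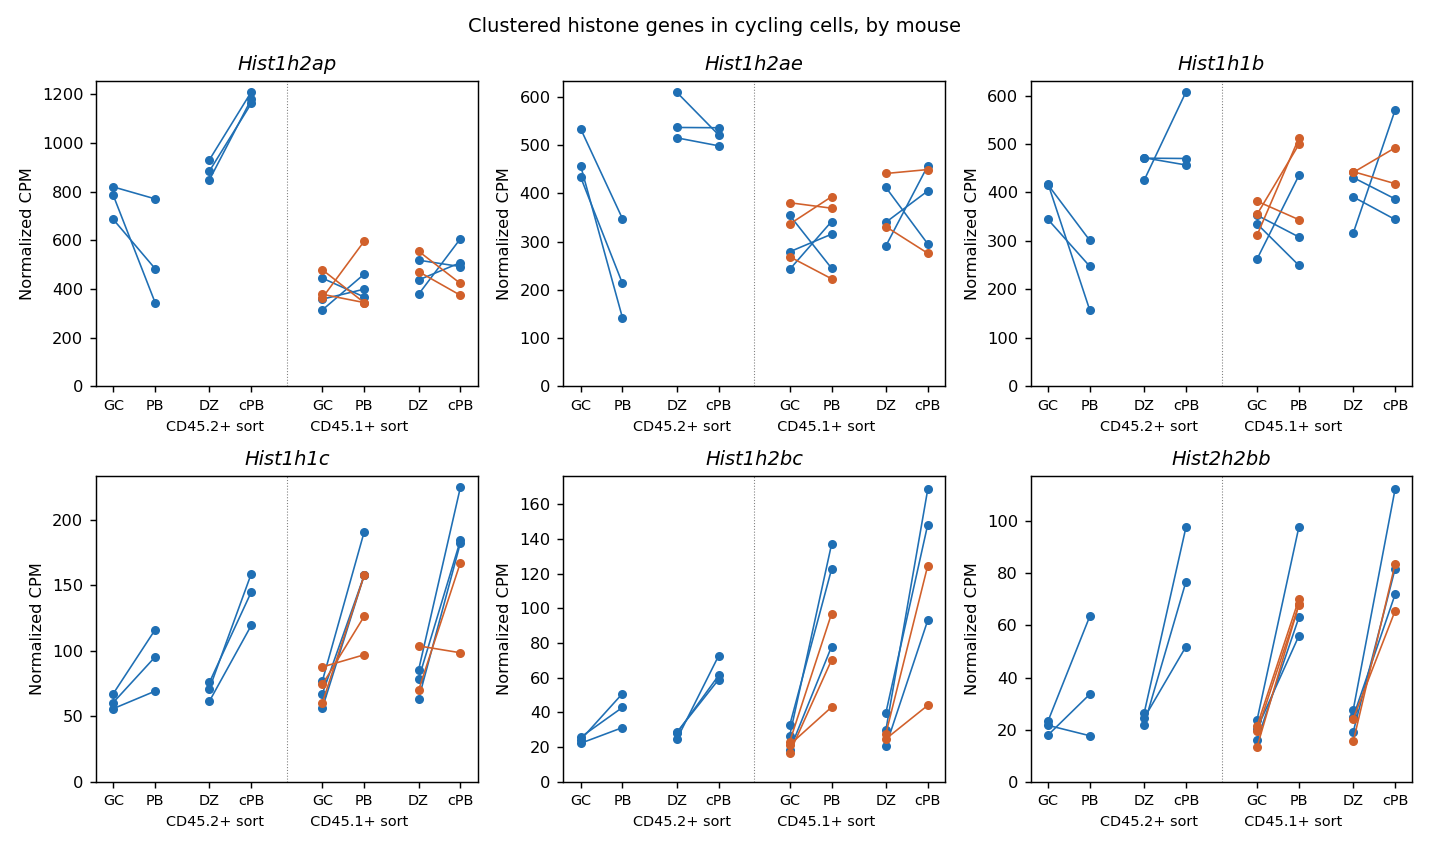
Normalised CPM of Hist1h2ap, Hist1h2ae, Hist1h1b, Hist1h1c, Hist1h2bc and Hist2h2bb in each mouse, with lines joining the GC cells and the plasmablasts of 1 mouse. Pairs are cycling GC cells (GC) and cycling plasmablasts (PB), and DZ clusters (DZ) and CyclingPC_PB (cPB), in both sorts. The lines of Hist1h2bc rise in every mouse, while those of Hist1h2ae fall from 457, 434 and 534 to 142, 213 and 347 in the CD45.2+ mice for the wider pair of classes. Between the clusters Hist1h2ae was not called (adjusted p = 0.503, edgeR).

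Hist1h3c and Hist1h4d, which code for H3 and H4, were not called in all CD45.2+ cycling cells (-0.13, adjusted p = 0.602, and -0.14, adjusted p = 0.539, edgeR). Between the clusters both were higher. Hist1h3c was then at 135, 205 and 181 normalised CPM against 87.7, 97.4 and 108, a log2 fold change of 0.84 ± 0.14 (edgeR, adjusted p = 5.21e-07), and Hist1h4d at 213, 156 and 194 against 117, 124 and 113, a log2 fold change of 0.66 ± 0.14 (edgeR, adjusted p = 4.81e-05). In the CD45.1+ sort Hist1h3c was higher by 0.99 (adjusted p = 1.39e-08, edgeR), Hist1h4d by 0.47 (adjusted p = 0.0033, edgeR) and Hist1h4i by 1.10 (adjusted p = 6e-09, edgeR). Hist4h4, the H4 gene on chromosome 6, was at 0.48 in CD45.2+ cells and not called (adjusted p = 0.465, edgeR).

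Of the remaining genes called with the largest folds, Hist3h2a rose most in CD45.2+ cycling plasmablasts, from 5.84, 5.28 and 6.56 to 13.6, 19.1 and 17.3 normalised CPM, a log2 fold change of 1.504 ± 0.28 (edgeR, adjusted p = 0.000127). Hist1h4n followed at 1.30 and Hist2h4 at 1.18, and Hist1h2af fell most, by 1.19 on the log2 scale, and was not called between the clusters (-0.32, adjusted p = 0.534, edgeR). Between the CD45.2+ clusters the largest folds were those of Hist1h4k (2.04 ± 0.68, on 11 UMIs against 26) and Hist2h4 (1.84 ± 0.41). In CD45.1+ cells Hist1h2bj rose by 1.42 ± 0.21, and between its clusters Hist1h2ac led with 2.34 ± 0.38 (edgeR, adjusted p = 1.16e-07). Most of these genes have few counts.

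Marker levels moved with these classes. Erythroid markers summed to 36.8 to 105 CPM in CD45.2+ cycling GC cells and 72.6 to 113.5 CPM in CD45.1+ ones, and to 6.495 to 9.67 and 0 to 3.59 CPM in cycling plasmablasts. T-cell markers summed to 67.5 to 143 CPM and 107 to 142 CPM in cycling GC cells, and to 68.2 to 113 and 25.1 to 71.7 CPM in cycling plasmablasts. S-phase transcripts took 0.537% of non-immunoglobulin UMIs in CD45.2+ cycling GC cells and 0.257% in cycling plasmablasts, against 0.528% and 0.369% in the CD45.1+ sort. G2M transcripts took 1.58% against 0.767% in the CD45.2+ sort and 1.38% against 1.03% in the CD45.1+ sort. Of the CD45.2+ clusters, DZ1 stood at 0.676%, DZ3 at 0.429%, DZ4 at 0.406% and CyclingPC_PB at 0.362% for S-phase transcripts, and at 1.03%, 2.20%, 1.87% and 1.33% for G2M transcripts. The part of cell-cycle position in the histone values was not tested beyond the phases below.

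Among cells called S, the 2 sorts gave opposite signs. The call did not equalise the classes, since S-phase transcripts took 0.251% of non-immunoglobulin UMIs in S-called plasmablasts against 0.664% in S-called GC cells of the CD45.2+ sort, and 0.422% against 0.620% in the CD45.1+ sort. In CD45.2+ cells 2 of 36 histone genes were higher in plasmablasts and 15 lower, where 21.6% and 20.7% of 8111 genes were called (median -0.67 against -0.04 over all genes). In CD45.1+ cells, over wt2, wt3 and cpm2 with 15, 51 and 12 plasmablasts, 11 of 12 were higher and 0 lower, where 23.2% and 24.1% of 4497 were called (median 1.22 against -0.10). Hist1h2ae was at 67.6, 177 and 179 normalised CPM in CD45.2+ S-phase plasmablasts against 333, 322 and 370 in S-phase GC cells, a log2 fold change of -1.30 ± 0.18 (edgeR, adjusted p = 1.49e-06). In CD45.1+ cells Hist1h2ap was at 428, 398 and 216 against 159, 167 and 209, a log2 fold change of 1.01 ± 0.20 (edgeR, adjusted p = 0.000152). Only Hist1h1c and Hist3h2a were higher in the CD45.2+ sort. Hist1h1c was at 65.5, 81.7 and 94.0 against 46.4, 44.9 and 48.9 there, a log2 fold change of 0.79 ± 0.18 (edgeR, adjusted p = 0.000978), and at 169, 165 and 153 against 31.8, 34.2 and 38.9 in the CD45.1+ sort, a log2 fold change of 2.22 ± 0.26 (edgeR, adjusted p = 3.75e-08). Under the stricter phase call 5 genes were called in the CD45.2+ sort, all higher. Between clusters the S phase could not be tested, since 1 mouse in each sort had at least 10 such plasmablasts.

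Among cells called G2M, genes were called in both directions in each sort. The share of lower genes was below that over all genes in every set. The share of higher genes was near that over all genes in CD45.2+ cells over all PC/PB clusters, and somewhat above it in the other sets. G2M transcripts took 1.21% of non-immunoglobulin UMIs in G2M-called plasmablasts against 2.03% in G2M-called GC cells of the CD45.2+ sort, and 1.38% against 2.13% in the CD45.1+ sort, so the classes differed here too. In CD45.2+ cells 9 of 47 histone genes were higher in plasmablasts and 5 lower, where 20.5% and 18.4% of 8447 genes were called, and between the clusters 10 of 47 were higher and 3 lower, where 16.4% and 17.6% of 8137 were. In CD45.1+ cells, over 5 mice, 8 of 23 were higher and 3 lower, where 27.8% and 29% of 4215 were called, and between the clusters, over 3 mice, 9 of 26 were higher and 1 lower, where 23.8% and 24% of 4713 were. Hist2h2bb and Hist1h2bc led in both sorts. In CD45.2+ G2M cells Hist2h2bb was at 40.6, 55.4 and 93.7 normalised CPM against 25.6, 22.6 and 29.97, a log2 fold change of 1.36 ± 0.21 (edgeR, adjusted p = 2.95e-07). In CD45.1+ G2M cells Hist1h2bc was at 183, 104, 95.0, 68.8 and 169 against 31.7, 47.7, 29.8, 28.7 and 29.8, a log2 fold change of 1.82 ± 0.23 (edgeR, adjusted p = 2.65e-08).

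Hist1h2ae was lower in G2M plasmablasts of both sorts. In CD45.2+ cells it was at 292, 259 and 463 normalised CPM against 585, 563 and 682, a log2 fold change of -0.86 ± 0.13 (edgeR, adjusted p = 1.59e-07), and it stayed lower between the clusters (-0.48 ± 0.11, adjusted p = 0.00148, edgeR). In CD45.1+ cells it fell by 0.41 on the log2 scale (adjusted p = 0.00352, edgeR), and between the clusters its change was -0.24 (adjusted p = 0.161, edgeR). Hist1h2ap in CD45.1+ G2M plasmablasts was at 426, 373, 530, 451 and 498 against 639, 560, 557, 739 and 554, a log2 fold change of -0.39 ± 0.11 (edgeR, adjusted p = 0.00309) without overlap. Between the clusters it was not called in either sort (0.071 in CD45.2+ cells, adjusted p = 0.63, and -0.28 in CD45.1+ cells, adjusted p = 0.0709, edgeR). Within G2M over all PC/PB clusters the H2A genes with the most counts and the leading H2B genes thus went opposite ways, apart from the H2B gene Hist1h2be, which fell by 1.52 on the log2 scale in the CD45.1+ sort (adjusted p = 0.0013, edgeR) and shares its place with Hist1h1e.

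The difference between the sorts was tested itself. The plasmablast effect was more negative in CD45.2+ than in CD45.1+ cells for 15 of 38 histone genes and more positive for 0, where 5.38% and 8.54% of 7845 genes were called, with a median difference of -0.81 on the log2 scale against 0.07 over all genes. Hist1h2ae differed by -1.08 ± 0.20 (edgeR, adjusted p = 7.08e-05), Hist1h3c by -1.08 ± 0.22 (adjusted p = 0.00037, edgeR), Hist1h1e by -0.90 ± 0.18 (adjusted p = 0.000345, edgeR) and Hist1h2ap by -0.64 ± 0.20 (adjusted p = 0.0218, edgeR). Hist1h1c differed by -0.49 and was not called (adjusted p = 0.119, edgeR). Between the clusters 0 of 39 histone genes were called, with 5 at an unadjusted p under 0.05, as had 963 of all 7234 genes, where 0.664% and 2.47% of the genes were called lower and higher, and the median difference was -0.09. There Hist1h2ae differed by -0.17 (adjusted p = 0.775, edgeR) and Hist1h2ap by 0.39 (adjusted p = 0.228, edgeR). The difference also went to 0 genes under the stricter phase call. The 2 sorts differ in the BCL2 transgene, in the congenic marker and in the library, which cannot be told apart.

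Outside the cycle, PC kept some histone mRNA. In the CD45.2+ sort 15 of 18 histone genes were higher in G1-called PC than in G1-called LZ cells and 0 lower, where 23.3% and 21.4% of 8592 genes were called, with a median log2 fold change of 1.13 against -0.02 over all genes. Among CD45.1+ cells 3 of 3 were higher, where 32% and 35.9% of 4520 genes were called higher and lower. A histone gene can pass the filter on low counts through its PC values alone. The genes tested in either sort are thus not a sample of all histone genes, and these counts are a description. Hist1h1c was at 46.2, 49.0 and 73.7 normalised CPM in G1 PC of the CD45.2+ sort and at 22.8, 20.7 and 15.3 in G1 LZ cells, a log2 fold change of 1.44 ± 0.20 (edgeR, adjusted p = 2.44e-06). Hist1h1e was at 87.0, 87.4 and 107.6 against 41.5, 39.0 and 37.1, a log2 fold change of 1.24 ± 0.14 (edgeR, adjusted p = 1.84e-07). Hist1h3a had the largest fold, 2.41 ± 0.40 (edgeR, adjusted p = 2.43e-05), and Hist1h4d was not called (0.26, adjusted p = 0.453, edgeR). Within the CD45.1+ sort Hist1h1c rose by 1.85 ± 0.19 (edgeR, adjusted p = 2.28e-09), Hist1h1e by 1.51 ± 0.17 and Hist1h4i by 1.43 ± 0.23.

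These levels have to be read against free RNA and scaling. Without normalisation Hist1h1e was at 72.8 ± 4.05 CPM in G1 PC (SD, n = 3), 65.0 ± 33.7 CPM in the T-cell cluster (SD, n = 3) and 40.3 ± 13.9 CPM in G1 LZ cells (SD, n = 5) of the CD45.2+ sort, so PC and T cells were not separated. Hist1h1c was at 43.3 CPM in G1 PC (n = 3), 18.0 CPM in the T-cell cluster (n = 3) and 35.4 CPM in G1 LZ cells (n = 5). The G1 LZ means include cpm mice, with as few as 15 cells in a mouse. The G1 PC means and the paired CD45.2+ test above rest on wt1 to wt3 only, so these means are not paired. Immunoglobulin transcripts took 37.8% of the UMIs of G1 PC, and the whole histone share there, 0.0393% of all UMIs, was at that of the T-cell cluster. Of the UMIs that were not from immunoglobulin genes, the histone share was 0.0632% in G1 PC (0.0593% to 0.0662%) and 0.0411% in the T-cell cluster (0.0364% to 0.0443%) of the CD45.2+ sort, and 0.0648% against 0.0247% in the CD45.1+ sort, so on that scale PC lay above the reference.

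The Dock8 genotype was compared over all LZ and DZ cells, 3 mice against 3. Dock8 mRNA itself stood at 99.2, 114 and 97.1 CPM in CD45.2+ cells of wt1 to wt3 and at 103, 86.2 and 65.6 CPM in cpm1 to cpm3, and the level of a transcript with a small mutation need not change. Xist, the RNA that marks an inactive X chromosome, was at 1390, 1650 and 1350 CPM in CD45.2+ cells of wt1 to wt3 and at 366, 582 and 465 CPM in cpm1 to cpm3. Ddx3y, a Y-linked gene, was at 1.55, 2.28 and 2.62 CPM against 53.4, 53.9 and 43.7 CPM. Genotype and sex of the transferred cells therefore cannot be told apart, and CD45.2+ cells assigned to cpm mice hold Xist as well as Ddx3y. Some of them may thus be cells of other mice, which also touches the cpm values of the DZ and LZ given above, and how many was not tested. In CD45.1+ cells Xist ran from 1370 to 1690 CPM and Ddx3y was at 0 in all 6 mice.

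edgeR and DESeq2 each called 0 of 50 histone genes in CD45.2+ cells, with 12 at an unadjusted p under 0.05 in edgeR, as had 576 of all 9426 genes, where 0.0424% and 0.0106% of the genes were called higher and lower. The median was -0.27 against -0.02 over all genes. Hist1h2ae was at 381, 285 and 350 normalised CPM in cpm1 to cpm3 and at 522, 412 and 604 in wt1 to wt3, with no overlap, a log2 fold change of -0.58 ± 0.14 (edgeR, adjusted p = 0.287). Hist1h1e was at 179, 201 and 178 against 272, 210 and 300, also without overlap (-0.50, adjusted p = 0.644, edgeR). Hist1h2ap was at 774, 428 and 609 against 896, 651 and 927, with overlap (-0.43, adjusted p = 0.676, edgeR). These values rest on 35, 18 and 41 cells in cpm1 to cpm3 against 518, 901 and 556 in wt1 to wt3. The share of DZ cells' UMIs was 0.546%, 0.267% and 0.371% in cpm1 to cpm3 and 0.395%, 0.399% and 0.430% in wt1 to wt3, so the cpm mice lay on both sides.

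In the CD45.1+ partner cells, which are Dock8 wt/wt in both groups, edgeR and DESeq2 each called 0 of 34 histone genes, with 0 at an unadjusted p under 0.05 in edgeR, as had 358 of all 8159 genes, where 0% and 0.0123% of the genes were called. The log2 fold changes ran from -0.43 to 0.51, with a median of 0.10. All 34 genes overlapped between the groups, but overlap was not counted over all genes. Hist1h2ap was at 0.10 and Hist1h2ae at 0.16.

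Genes that supply histones formed the second list. It held genes for processing of histone mRNA, for cyclins and E2F factors, for histone chaperones and for histone variants, whose genes lie outside the clusters. In the DZ, 39 of 46 were higher than in the LZ and 1 lower in the CD45.2+ sort, and 36 of 44 and 0 in the CD45.1+ sort, where 25.8% and 25.6% of all genes tested were called higher and 24.5% and 25.2% lower. Slbp, the stem-loop binding protein, rose from an average of 94.5 to 328 normalised CPM in the CD45.2+ sort, a log2 fold change of 1.71, and by 1.74 in the CD45.1+ sort. H2afx, the variant that marks broken DNA, was higher by 2.79 and 2.75, and Ccne2, a cyclin of the G1/S transition, by 4.13 and 5.05. The supply genes were not removed before clustering. Slbp, H2afx, H2afz and Cenpa are on the marker lists that named DZ clusters. H2afx is also among the leading genes of DZ3, and Ccne2 among those of DZ1. Counts and values of this list between clusters are therefore a description, also where a p-value is given and for plasmablasts below. Ccna2 rose by 3.96 and 6.08, and Asf1b, an H3 and H4 chaperone, by 3.20 and 3.34.

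In cycling plasmablasts this list was mainly lower, in both sorts and both settings. The lists that called the phase hold some of these genes, namely Slbp, Nasp, Casp8ap2, Chaf1b, Ccne2, E2f8 and Cenpa. For them the values in phase-called cells are a description, here and below. In CD45.2+ cells 31 of 46 were lower and 2 higher, where 21.5% and 23.3% of all genes were, and between the clusters 26 and 2, where 19.4% and 17.7% were. In CD45.1+ cells 27 of 45 were lower and 6 higher, where 29.8% and 27.2% of all genes were, and between the clusters 24 of 44 and 5, where 28.4% and 25.6% were. Of the chaperones, 10 of 13 were lower in CD45.2+ cells and 10 of 12 in CD45.1+ cells, and 0 were higher. Slbp was at 93.5, 97.1 and 118 normalised CPM in CD45.2+ cycling plasmablasts against 242, 214 and 211 in cycling GC cells, a log2 fold change of -1.09 ± 0.14 (edgeR, adjusted p = 1.74e-06), and was lower by about as much between the clusters (-1.02 ± 0.14, adjusted p = 6.4e-09, edgeR). In the CD45.1+ sort it ran from 96.9 over 134 to 165 against 207 over 243 to 276, a log2 fold change of -0.83 ± 0.12 (edgeR, adjusted p = 3.41e-08). Slbp was thus lower in the same clusters in which most called histone genes were higher.

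Among the variants H1f0 and H1fx went opposite ways. H1f0 is among the leading genes of CyclingPC_PB, so its values and those of H2afx are a description. H1f0, a linker histone of cells that leave the cycle, was at 74.6, 106 and 132 normalised CPM in CD45.2+ cycling plasmablasts against 16.1, 19.7 and 20.96 in cycling GC cells, a log2 fold change of 2.46 ± 0.15. In CD45.1+ cells it ran from 119 over 152 to 318 against 16.7 over 19.3 to 25.4. H1fx was at an average of 7.74 against 63.5 normalised CPM in the CD45.2+ sort (-3.03, adjusted p = 4.26e-10, edgeR), and gave 1 UMI in CD45.1+ cycling plasmablasts against 429 UMIs in cycling GC cells. H2afx was lower by 1.41 in the CD45.2+ sort (132 against 347 normalised CPM) and by 1.39 in the CD45.1+ sort.

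The other roles gave mixed counts. Of the cyclin and E2F genes 7 of 8 were lower in CD45.2+ cycling plasmablasts, with log2 fold changes of -1.38 for E2f8, -1.27 for Cdk2, -1.26 for Ccne2 and -0.88 for E2f7. In CD45.1+ cells 2 of 8 were lower and 2 higher, near the 29.8% and 27.2% over all genes, with higher levels of Ccne1 by 1.09 (adjusted p = 3.91e-06, edgeR) and Ccna2 by 0.55 (adjusted p = 0.00108, edgeR), while Cdk2 fell by 1.74. Of the chaperones Supt16, a subunit of the FACT complex, fell by 1.45 and 1.15 on the log2 scale in the CD45.2+ and CD45.1+ sorts, and Chaf1b, a subunit of the chromatin assembly factor CAF-1, by 1.41 and 1.52. Cpsf2, a subunit of the complex that cuts histone mRNA, fell by 1.52 and 1.40. None of the list was called between Dock8 groups in either sort.

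Promoters are shown for 3 genes whose values differed between these states. In the 250 bases before the start, read from RefSeq (GRCm38.p6) for the 60 histone genes that could be matched and searched on both strands, TATAAA occurred in 28 (46.7%) against 12.4% of all 32851 promoters, CCAAT in 49 (81.7%) against 33.8%, ATTTGCAT in 13 (21.7%) against 1.6%, and AAACACAA in 6 (10%) against 1.67%. The motif AAACACAA was in 4 of 5 H1 promoters and in 2 of 55 others, and ATTTGCAT in 0 of 5 H1 promoters. Each run below is the 150 bases before the start on the gene's strand, with capitals for these motifs in either orientation.
Hist1h1b (chr13:21780626-21780775, minus strand): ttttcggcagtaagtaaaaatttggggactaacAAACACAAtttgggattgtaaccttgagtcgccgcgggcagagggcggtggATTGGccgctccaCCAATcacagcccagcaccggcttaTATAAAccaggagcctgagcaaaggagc
Hist1h1c (chr13:23738657-23738806, plus strand): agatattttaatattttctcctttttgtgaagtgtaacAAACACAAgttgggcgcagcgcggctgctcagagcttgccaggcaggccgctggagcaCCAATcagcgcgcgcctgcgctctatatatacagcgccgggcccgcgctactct
Hist2h2bb (chr3:96269550-96269699, plus strand): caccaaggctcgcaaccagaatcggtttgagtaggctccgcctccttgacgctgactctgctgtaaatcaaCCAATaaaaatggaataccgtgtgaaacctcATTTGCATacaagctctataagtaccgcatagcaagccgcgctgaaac
Hist1h1b and Hist1h1c, which behaved differently between DZ and LZ and in plasmablasts, both hold AAACACAA and CCAAT in these windows, and TATAAA stands in that of Hist1h1b. Hist2h2bb, which was higher in plasmablasts, holds ATTTGCAT and CCAAT. A match of letters is a description of the sequence only.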

How the data were processed

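Single-cell RNA-seq was analysed from 2 mRNA libraries and 2 hashtag libraries, 1 pair for each sort. The authors mapped the reads to mm10-2020-A (GRCm38) and counted them with Cell Ranger 5.0.1, and Seurat 4.0 is named in the submitters' processing notes. The deposited values were raw UMI counts per gene and barcode and raw hashtag counts, and the authors' table of hashtags gave each mouse and its group. Whether the sequencing was counted with strand is not given in the sources used here.

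Hashtags were assigned with HTODemux (quantile 0.99, Seurat 5.3.0, R 4.3.3), and singlets with under 10% mitochondrial UMIs and 100 to 5500 genes were kept. Phases were called on cells thinned to 2000 UMIs. Clusters (3000 variable genes less the histone genes, 30 components, resolution 0.9, seed 1) were named when at least 3 markers of a list were among the 50 highest genes. The LZtoPrePC_Memory cluster had a median depth 0.276 of its library. Scrublet (in scanpy 1.11.5) called 4 of 6488 and 13 of 3204 cells, which is too few to count as a working caller, so the 6% with the highest scores (389 and 192) were removed as an alternative.

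UMI counts were summed per mouse and class, with at least 10 cells, and tested with edgeR 4.0.16 (TMM, filterByExpr, quasi-likelihood test, Benjamini-Hochberg over all genes tested, threshold 0.05), with the mouse as block wherever both classes came from the same animals. Normalised CPM are scaled by TMM. The same mouse gives both classes, so the hashtag is the source of the pairing. A fitted SE is the log2 fold change over the root of its F. Tested on simulated data, a 2-fold change was recovered in 53.8% of genes for cycling plasmablasts against GC cells in the CD45.2+ sort, 83.1% in the CD45.1+ sort, and 87.5% and 89.4% for DZ against LZ. Named were 11 fixed genes, the 6 called genes with the largest fold in each direction of a comparison, and of the supply list the 4 called with the largest fold per role with Slbp and H2afx. Xist, Ddx3y and Dock8 were added after the values were seen. The histone genes and lists were chosen with earlier results of these data known. Alternatives were DESeq2 1.42.0, RLE scaling, immunoglobulin genes left out, no filter, a minimum of 20 cells, a filter of under 5% mitochondrial UMIs and over 500 genes, resolutions 0.6 and 1.2, unthinned phases, a phase score above 0.1, a hashtag rule of 3-fold over the next, histone genes kept in the clustering, doublet removal, no block, each mouse left out and, added later, clusters only.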

Additional observations from a re-analysis of the deposited data

Results flagged for a closer look

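The share of histone UMIs in CD45.1+ DZ cells was 0.252% in wt3, below the 0.324% to 0.367% of the other 5 mice and far enough from them to be marked as a stray value, which chance does in about 1 in 20 groups. The DZ1 share of the same mouse, 0.0735%, was also the lowest of the 6.

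The plasmablast effect differed between CD45.2+ and CD45.1+ cells in edgeR for 15 histone genes, all more negative in CD45.2+ cells. On the log2 scale the differences were -1.3 for Hist2h2ac, -1.7 for Hist1h2ac, -0.64 for Hist1h2ap and -1.08 for Hist1h2ae among the H2A genes, and -0.96 for Hist2h2bb, -1.08 for Hist1h2bj and -1.13 for Hist1h2bc among the H2B genes. The H3 genes were Hist1h3f (-1.31), Hist1h3e (-1.18) and Hist1h3c (-1.08), and Hist1h4i (-0.73) was the H4 gene. The H1 genes were Hist1h1a (-1.05), Hist1h1b (-0.94), Hist1h1d (-1.05) and Hist1h1e (-0.9). Under 2 settings, the DZ and CyclingPC_PB clusters only and a phase score above 0.1, 0 of these remained called. The sort, the BCL2 transgene and the library cannot be told apart.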

How the results depend on the processing

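The choice of cells moved the comparison of cycling cells more than the scaling did. The 18 genes called between CD45.2+ cycling plasmablasts and GC cells became 28 within the DZ and CyclingPC_PB clusters only (27 higher), 22 with a phase score above 0.1 and 9 with DESeq2. For S phase in CD45.2+ cells 17 became 5 with a phase score above 0.1, 4 with unthinned phase calls and 7 with DESeq2. For G2M 14 became 7, for G1 PC 15 became 9 and for CD45.1+ cycling cells 15 became 9, all with DESeq2. The 3-fold hashtag rule gave 23 for CD45.1+ cycling cells and 5 in place of 3 for CD45.1+ G1 PC. Without the filter on low counts DZ against LZ gave 51 (CD45.2+) and 48 (CD45.1+), CD45.1+ S phase 18 in place of 11, CD45.1+ G1 PC 18, and Dock8 groups in CD45.2+ cells 4, all lower. The 15 genes that differed between sorts became 0 with a phase score above 0.1, 9 with unthinned phase calls, 26 with the 3-fold hashtag rule and 0 in the clusters only. The causes were not tested.

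With each mouse left out the counts ran from 13 to 17 (CD45.2+ cycling), 9 to 16 (S), 9 to 17 (G2M), 25 to 37 (DZ against LZ) and 9 to 14 (G1 PC), and in the CD45.1+ sort from 9 to 17, 8 to 16, 9 to 14, 26 to 28 and 2 to 3. They ran from 0 to 2 for Dock8 groups, stayed at 0 for the partner cells and ran from 11 to 16 for the difference between sorts. CD45.2+ S phase had 9 without wt1 and 9 without wt2, G2M 9 without wt3, G1 PC 9 without wt2 and CD45.1+ cycling cells 9 without wt3, and the Dock8 groups had 2, both lower, without cpm1. The DZ share ran from 0.372% to 0.428% in the CD45.2+ sort and from 0.320% to 0.343% in the CD45.1+ sort.

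Without the replicate block, which pairs classes of the same mouse, the counts were 17, 16, 14, 30 and 15 in the CD45.2+ sort, in the order cycling, S, G2M, DZ against LZ and G1, 14, 11, 11, 26 and 3 in the CD45.1+ sort, and 13 for the difference between sorts.

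Log2 fold changes turned positive for these genes. In CD45.2+ cycling cells with a phase score above 0.1 they were 0.35 for Hist1h1e, 0.20 for Hist1h2ap, 0.54 for Hist1h3c and 0.50 for Hist1h4d. In the clusters only they were 0.17 for Hist1h1b, 0.46 for Hist1h1d, 0.44 for Hist1h1e, 0.42 for Hist1h2ap, 0.84 for Hist1h3c and 0.66 for Hist1h4d. In CD45.2+ S phase with a phase score above 0.1 they were 0.25 for Hist1h1a, 0.52 for Hist1h1b, 0.34 for Hist1h1d, 0.59 for Hist1h1e, 0.80 for Hist1h2ap, 0.26 for Hist1h2ae and 0.57 for Hist1h3c, and with unthinned phase calls 0.25 for Hist1h3c. In CD45.2+ G2M within the clusters only Hist1h2ap was at 0.071. For the difference between sorts Hist1h2ap was at 0.14 with a phase score above 0.1, and in the clusters only Hist1h1b was at 0.038 and Hist1h2ap at 0.39. Over named genes and alternatives, 22 of 2995 values changed sign with a call in the main fit, the alternative or both. Of the others, 169 lost significance, 33 gained it and 2771 kept their side of the threshold. A change of sign in a gene called in neither fit was not counted and falls among the 2771. RLE scaling and leaving out immunoglobulin genes gave no change of sign that was counted in this way.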
